A study of Mus musculus with 8 samples.

Results

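The intercalated disc genes examined here are *Gja1*, *Cdh2*, *Dsp*, *Dsg2*, *Pkp2*, *Jup*, *Ctnna3*, *Tjp1*, *Xirp1* and *Des*, which encode parts of the junction that holds neighbouring cardiomyocytes together end to end. A peak of acetylation of histone H3 at lysine 27 (H3K27Ac) was counted for a gene when its centre lay nearer to a curated RefSeq transcription start of that gene than to any other start. Of the 45987 peaks in the deposited table, 45980 lay on chromosomes and 58 of those belonged to the 10 genes. *Cdh2* had 18 peaks, *Tjp1* 14 and *Ctnna3* 8, while *Dsp* and *Xirp1* had 4 each, *Gja1* and *Pkp2* 3 each, *Des* 2, and *Dsg2* and *Jup* 1 each. The rule that joins peaks to the genes uses no acetylation value.

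ChIP-Seq for H3K27Ac was performed on mouse ventricles at postnatal day 7 (P7). The 2 controls (Arid1a f/f Control) had *Arid1a* alleles flanked by loxP sites and no Cre, and the 2 mutants (aMHC-Cre;Arid1a f/f cKO, here *Arid1a cKO*) had the same alleles and αMHC-Cre, a transgene that is active in cardiomyocytes. *Arid1a* encodes a DNA-binding subunit of SWI/SNF, a complex that remodels chromatin, and the comparison asks where the mark of active promoters and enhancers differs when this subunit is deleted in cardiomyocytes. Each H3K27Ac library had an input library without antibody, which makes 8 libraries. Whole ventricles also hold fibroblasts, endothelial cells and other cells in which the transgene is not active.

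The deposited table gives, for each peak, the log2 of the mean number of normalized reads in each group, and 0 columns of values for single libraries. Every level below is therefore the authors' mean of 2 libraries, turned back from the log2 scale to normalized reads, and every log2 difference is the *Arid1a cKO* mean minus the control mean. No spread between replicates or interval could be computed for any peak from these means, the test results that the authors deposited were not used, the libraries' depths are unknown, and the values describe these libraries only. A difference is set beside the same measure over all 45980 peaks, whose median was 0.01. Since the chromatin came from whole ventricles, fewer cells of a type and less of the mark per cell cannot be told apart. The peak over the *Arid1a* start on chromosome 4 had 1607 normalized reads in controls and 1663 in mutants, but acetylation at a start does not measure the deletion of exons further down.

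Intercalated discs join the ends of cardiomyocytes and carry both force and current from cell to cell. Desmosomes (desmoplakin, desmoglein, plakophilin and plakoglobin) tie the discs to the desmin filaments, adherens junctions (N-cadherin and the catenins) tie them to actin, and gap junctions (connexin 43) pass the current. These components are spread over the cell surface at birth and gather at the cell ends as the heart matures, and mutations of desmosome genes cause arrhythmogenic cardiomyopathy.

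The sequences shown first are those of *Dsp*, whose 4 peaks were all at least 1.5-fold lower in the mutant mean. The promoter of *Dsp* lies under its start peak, and the sequence shown runs over 280 bases of the plus strand, chr13:38151044-38151323 of GRCm38.p6, from 250 bases before the RefSeq start to 30 bases after it. Capitals mark the core CAGGTG, which ZEB repressors and other E-box factors can bind, searched as these letters on both strands. The full window of 300 bases had 73.0% G and C and 27 CpG dinucleotides, against medians of 52.7% and 7 over 32851 RefSeq promoters, and 20.2% of those promoters held the same core.
*Dsp* promoter: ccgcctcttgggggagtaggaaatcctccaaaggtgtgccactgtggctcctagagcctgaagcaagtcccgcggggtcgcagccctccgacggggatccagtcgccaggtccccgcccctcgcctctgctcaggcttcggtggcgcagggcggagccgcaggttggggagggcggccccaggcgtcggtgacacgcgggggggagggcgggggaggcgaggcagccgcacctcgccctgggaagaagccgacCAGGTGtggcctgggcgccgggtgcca

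Within the *Dsp* start peak there were 2 matches to CAAGGTCA, the core that ESRR nuclear receptors bind. They lay 4.07 and 2.83 kb upstream of the start, outside any curated gene, and both are printed with 20 bases on each side in the reading direction of the core, which stands in capitals. The first is on the minus strand, chr13:38147206-38147253, and the other on the plus strand, chr13:38148444-38148491. At least 1 such match was present in 56.6% of the 860 peaks of like width, so its presence in a peak as wide as this one is common.
*Dsp* upstream ESRR core 1: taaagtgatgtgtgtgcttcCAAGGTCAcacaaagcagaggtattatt
*Dsp* upstream ESRR core 2: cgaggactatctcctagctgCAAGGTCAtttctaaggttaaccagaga

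The intronic *Dsp* peak with the lowest value held no MEF2, ESRR or TEAD core and 4 ZEB cores, all in introns of *Dsp* between 12.1 and 14.3 kb downstream of the start. They are shown because this is one of only 2 peaks of the 10 genes that were at least 2-fold lower in the mutants, again with 20 bases on each side and the core in capitals. The stretches lie at chr13:38163376-38163421 on the minus strand, and at chr13:38163632-38163677, chr13:38165133-38165178 and chr13:38165597-38165642 on the plus strand. A ZEB core was present in 97.9% of the 2211 peaks of like width.
*Dsp* intron ZEB core 1: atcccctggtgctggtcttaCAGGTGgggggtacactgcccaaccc
*Dsp* intron ZEB core 2: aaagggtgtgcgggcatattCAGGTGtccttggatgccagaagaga
*Dsp* intron ZEB core 3: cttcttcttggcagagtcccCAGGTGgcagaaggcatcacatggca
*Dsp* intron ZEB core 4: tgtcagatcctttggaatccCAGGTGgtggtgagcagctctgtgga

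As a set, the 58 peaks lay close to all peaks. Their median log2 difference was 0.04, with 26 below 0 and 32 above it, and the central 50% of them ran from −0.31 to 0.30. The mutant mean was at least 2-fold lower in 2 peaks, which is 3.45% of the members against 10.6% of all peaks, and at least 2-fold higher in 0 members against 4.57% of all peaks. At least 1.5-fold lower were 10 peaks (17.2% of the members, 17.3% of all peaks), and at least 1.5-fold higher were 4 (6.90%, against 12.0%). No member peak passed 4-fold, a limit passed in the lower direction by 3.77% and in the higher direction by 0.650% of all peaks. Over all levels together, the share of 1.5-fold lower peaks was thus near the background. Of those 10, 4 belonged to *Dsp*, 3 to *Tjp1*, 2 to *Cdh2* and 1 to *Dsg2*.

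**Figure D1:**
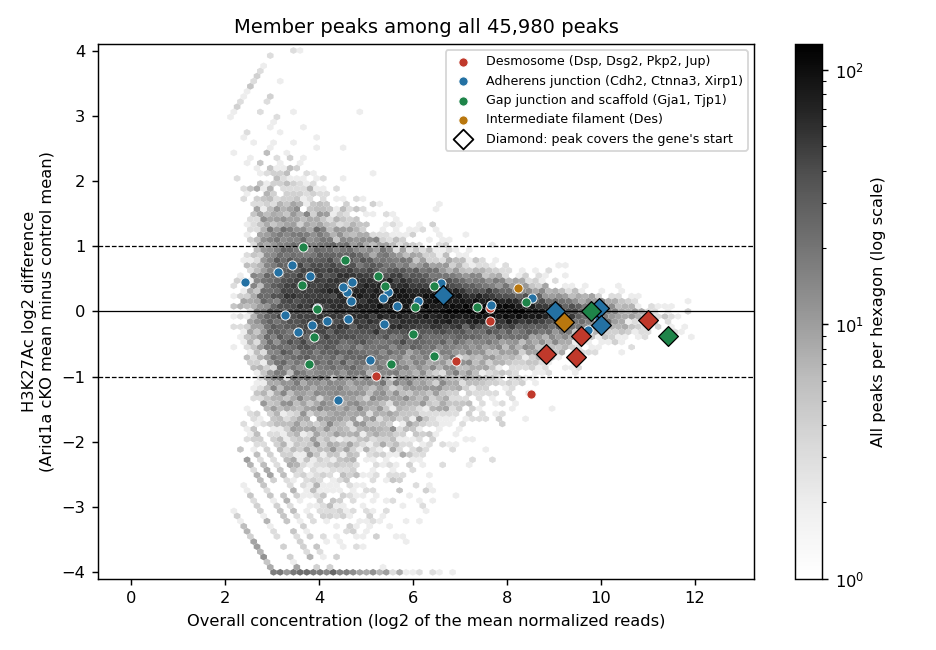
Each peak's log2 difference (vertical axis, *Arid1a cKO* mean minus control mean) against its overall concentration (horizontal axis, log2 of the mean normalized reads), with all 45980 peaks as grey hexagons, differences beyond 4 drawn at the edge, and the 58 peaks of the disc genes in colour by role. Dashed lines mark 2-fold. The grey cloud narrows toward high concentration. Of the peaks in the highest of 4 equal concentration groups, 1.57% were at or below the *Dsp* peak at −1.26.

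How far a difference stands out depends on the level of the peak. When all peaks were ranked by overall concentration into 4 equal groups, the SD of the differences between peaks was 1.21 in the lowest and 0.370 in the highest group. From the lowest group up, 1 of 14, 3 of 14, 3 of 10 and 3 of 20 members were at least 1.5-fold lower. These shares were 7.14%, 21.4%, 30% and 15%, against 24.8%, 22.1%, 15.3% and 7.01% of all peaks in the same groups, and the member counts are small. The 4 members that were at least 1.5-fold higher all had low levels, with no group mean over 29.9 normalized reads. They were a *Tjp1* peak (8.40 reads in controls, 16.7 in mutants, log2 difference 0.99), a *Gja1* peak (17.3 and 29.9, 0.79) and a pair of *Cdh2* peaks (0.71 and 0.60). The 10 lower peaks ran from low to high levels, with group means from 9.99 to 873 normalized reads. Among them were a *Tjp1* peak with 17.4 reads in controls and *Cdh2* peaks with 30.5 and 42.2. Over the 20 members with more than 100 reads in both groups, the differences ran from −1.26 to 0.36, and every one of the 10 genes had at least 1 such peak. Just outside the 2-fold limit lay a *Dsp* peak at −0.99 and the *Tjp1* peak at 0.99.

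**Figure D2:**
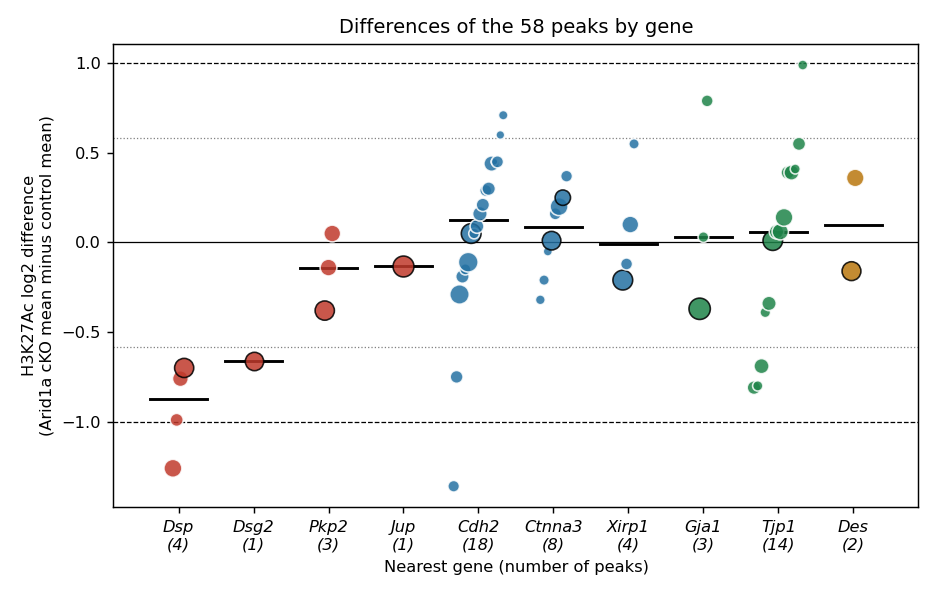
Log2 difference of each of the 58 peaks (points) by nearest gene, with the number of peaks in brackets, larger points for higher concentration, black rims for peaks that cover the start of the gene, and a bar at each gene's median. Dashed and dotted lines mark 2-fold and 1.5-fold. All 4 *Dsp* points and the *Dsg2* point lie below the lower dotted line, while *Cdh2* and *Tjp1* spread to both sides of 0.

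Among the desmosome genes, 8 of the 9 peaks lay below 0 (48.3% of all peaks did), with a median of −0.66, and 4 of those 8 were peaks of *Dsp*. With peaks taken from the gene body and 10 kb upstream instead, the median was 0.02 for *Pkp2* and 0.37 for *Jup*. Summed over the 9 peaks assigned by nearest start, the authors' means came to 5560 normalized reads in controls and 4238 in mutants. *Dsp* encodes desmoplakin, which links the desmosomal plaque to the desmin filaments, and lies on chromosome 13 from 38151294 to 38198577 on the plus strand. Its start peak (38144955 to 38154896) had a mean of 873 reads in controls and 537 in mutants, a log2 difference of −0.70. Of the 12022 peaks that cover any curated start, 3.11% had a difference at or below this value, and 5.23% of the highest concentration group did. An intronic peak 6.31 kb downstream (38156455 to 38158761) had 48.8 reads in controls and 24.6 in mutants (−0.99). In its own concentration group, 14.2% of peaks were at or below that value. The next one, 12.8 kb downstream (38160853 to 38167289), had 512 and 214 reads (−1.26, 2.39-fold lower), and 1.57% of the peaks in the highest concentration group were at or below it. The last, 19.5 kb downstream (38169487 to 38172132), had 152 and 89.9 reads (−0.76), and 12.3% of its concentration group was at or below it. All 4 peaks of *Dsp* were thus at least 1.5-fold lower in the mutant mean, with the summed reads at 1586 in controls and 866 in mutants. Of the 3760 genes with at least 4 peaks, 30 (0.798%) had every peak at least 1.5-fold lower, a measure that was chosen after the *Dsp* values were seen.

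The peaks on either side of *Dsp* lay both above and below 0. Within 100 kb of the gene lay 9 peaks nearest to other genes, with a median of −0.22 and values from −1.24 to 0.65. The nearest upstream, assigned to *Riok1*, had a difference of −0.31, and the nearest downstream, over the start of *Snrnp48*, had 0.46 (54.2 reads in controls and 74.5 in mutants).

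*Dsg2* encodes desmoglein 2, the desmosomal cadherin of the heart muscle. It lies on chromosome 18 from 20558074 to 20604526, and its single peak (20551692 to 20559802) covers the start. The authors' mean there was 556 reads in controls and 352 in mutants, a log2 difference of −0.66 (1.58-fold lower). At or below this difference were 3.49% of all start-covering peaks and 5.72% of the highest concentration group. The 5 peaks within 100 kb that were nearest to other genes were all below 0, from −2.24 to −0.07, some of them at very low levels. The strongest of them, nearest to *Gm16090*, had 333 reads in controls and 239 in mutants (−0.48). The peak at −2.24 had 8.94 reads in controls and 1.89 in mutants, the latter under the floor of 3. That at −0.07 had 5.46 and 5.21.

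*Pkp2* encodes plakophilin 2, an armadillo protein of the desmosomal plaque, on chromosome 16. Its start peak (16212587 to 16222052) had 861 reads in controls and 662 in mutants (−0.38). Further into the gene the means of the groups drew together, with 209 and 190 reads in the peak 11.2 kb downstream (−0.14) and 197 and 204 in that at 16.3 kb (0.05). *Jup* encodes plakoglobin, a catenin shared by desmosomes and adherens junctions, on chromosome 11. Its start lies under 1 very wide peak of 20574 bp (100384444 to 100405017), which also covers the start of *Gm12348*, with 2150 reads in controls and 1965 in mutants (−0.13). Among the 4 desmosome genes, *Dsp* and *Dsg2* thus lay past 1.5-fold at their starts and *Pkp2* and *Jup* did not, and the difference between the genes was not tested.

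**Figure D3:**
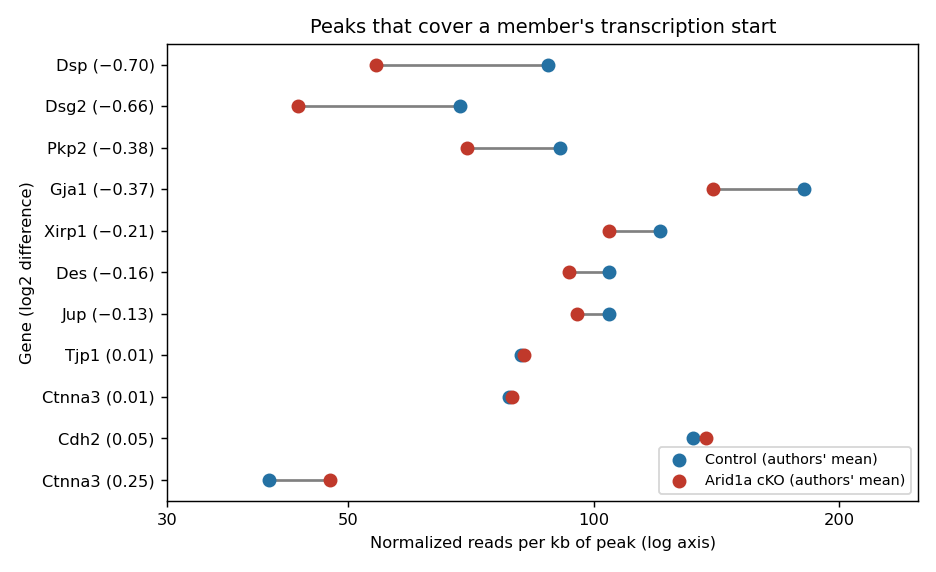
Normalized reads per kb of peak (horizontal log axis) in controls and *Arid1a cKO*, as the authors' means, for the 11 peaks that cover the start of their gene, ordered by log2 difference (in brackets). *Dsp*, *Dsg2*, *Pkp2* and *Gja1* show the widest gaps toward lower reads in the mutants, and *Tjp1*, *Cdh2* and the stronger *Ctnna3* start show almost none.

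The peaks over the starts give the most direct comparison of the 10 genes, since each has at least 1. Over these 11 peaks (*Ctnna3* has 2 covered starts) the median difference was −0.16, against 0.01 over the 12022 start-covering peaks. At least 1.5-fold lower were 2 of the 11, *Dsp* and *Dsg2*, against 4.18% of all start-covering peaks, and 0 were at least 1.5-fold higher, against 4.43%. The peaks are wide, with a median of 9092 bp against 2207 bp over all start-covering peaks. They are also strong, with a median of 873 reads in controls against 151. All of them but a *Ctnna3* start lie in the highest concentration group. Over all peaks of that group the median difference was −0.03, and 7.01% were at least 1.5-fold lower. Per kb of peak, the *Gja1* start had the highest level, with 181 reads per kb in controls and 140.0 in mutants. It was followed in controls by *Cdh2* (132 per kb, 137 in mutants), *Xirp1* (121 and 104), *Jup* (104 and 95.5), *Des* (104 and 93.3), *Pkp2* (91.0 and 69.9), *Dsp* (87.8 and 54.1), *Tjp1* (81.5 and 82.0), the stronger *Ctnna3* start (78.8 and 79.3) and *Dsg2* (68.6 and 43.4). The weaker *Ctnna3* start came last with 40.0 reads per kb in controls and 47.6 in mutants, and in mutants it was *Dsg2* that had the lowest level. Without replicate values it cannot be said which neighbours in this order differ.

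The adherens junction genes had 30 peaks with a median of 0.10, close to that of all peaks. *Cdh2* encodes N-cadherin, the classical cadherin of cardiomyocytes, and spans 220 kb of chromosome 18. Its start peak (16803888 to 16811252) had 976 reads in controls and 1010 in mutants (0.05). A pair of broad intronic peaks was as rich in reads as the start. That at 67.2 kb downstream (16735285 to 16748734) had 1038 reads in controls and 962 in mutants (−0.11), and that at 95.7 kb (16707166 to 16719936) had 936 and 765 (−0.29). Of the 18 *Cdh2* peaks, 12 lay above 0 and 6 below, with the extremes in peaks of low level. The lowest, 504 kb downstream of the start and beyond the end of the gene (16304861 to 16306284), had 30.5 reads in controls and 11.9 in mutants (−1.36, 2.57-fold lower). The highest, in an intron (16633889 to 16634882), had 8.11 and 13.3 reads (0.71).

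*Ctnna3* encodes αT-catenin, an α-catenin of heart muscle, and its 8 peaks kept within −0.32 to 0.37. The peak at the first start on chromosome 10 (63428480 to 63430758) had 91.1 reads in controls and 108 in mutants (0.25), and the stronger one at a start further in (63454984 to 63461527) had 516 and 519 (0.01). Its richest peak away from a start, 20.2 kb downstream (63473938 to 63481400), had 343 and 393 reads (0.20), and 86.3% of the highest concentration group was at or below that value. *Xirp1* encodes an actin-binding repeat protein of the disc. Its start peak on chromosome 9 (120019165 to 120028256) had 1097 reads in controls and 949 in mutants (−0.21), and the other 3 peaks had differences of 0.10, −0.12 and 0.55, the last at 11.3 and 16.6 reads.

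*Gja1*, which encodes connexin 43, the main gap junction protein of the ventricle, had the member peak with the most reads. The peak covers the gene apart from its very end (17159 bp on chromosome 10, 56372918 to 56390076), with 3104 reads in controls and 2402 in mutants. The log2 difference of −0.37 is 1.29-fold, and 8.70% of start-covering peaks and 12.9% of the highest concentration group were at or below it. The other *Gja1* peaks were weak and lay downstream of the gene. One had 15.3 reads in controls and 15.7 in mutants (0.03), and the other was the peak at 0.79 given above.

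*Tjp1* encodes ZO-1, the scaffold at the edge of the gap junction plaque, and its peaks fell into blocks along chromosome 7. At the start (65365465 to 65376255) the means were 879 reads in controls and 885 in mutants (0.01), and the broad peaks next to it had differences of 0.06 and 0.14. Between 15.6 and 50.2 kb upstream lay 7 peaks, of which only 1 was below 0 (−0.34). Further upstream, between 84.9 and 96.4 kb, lay 3 peaks that were all at least 1.5-fold lower, with 17.4 reads in controls and 9.99 in mutants (−0.80), 108 and 66.7 (−0.69), and 58.9 and 33.6 (−0.81). No curated transcript of *Tjp1* reaches that far, whereas the RefSeq span of the gene, which counts predicted transcripts, includes them.

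**Figure D4:**
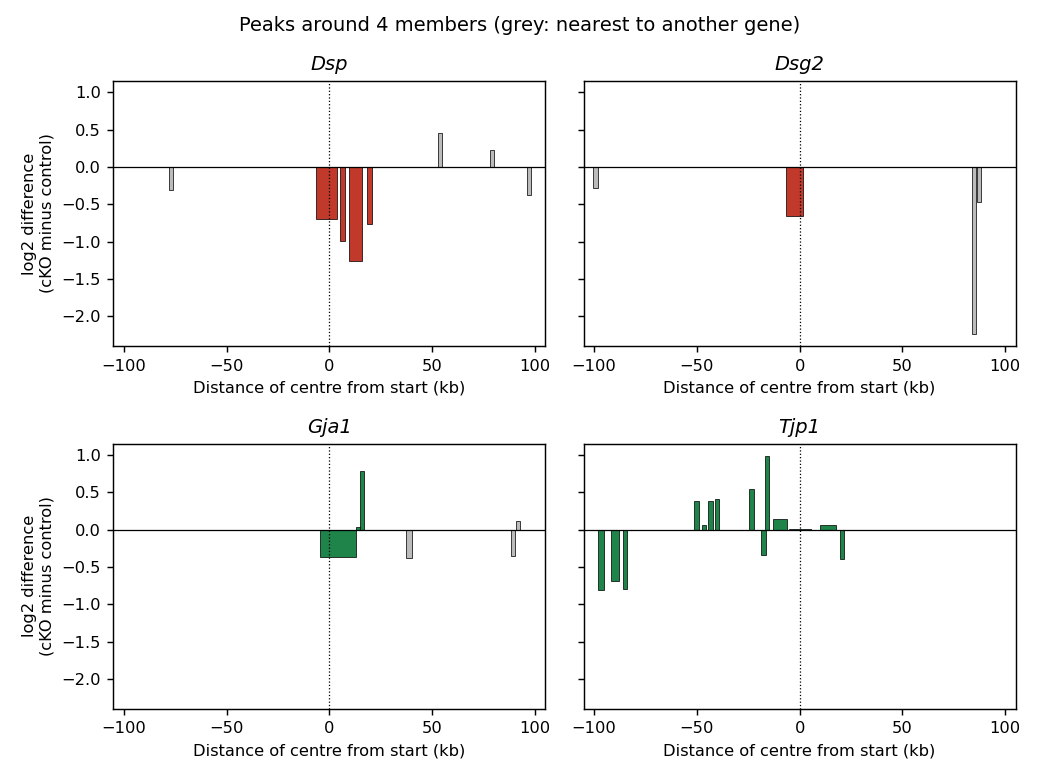
Log2 difference (vertical axis) of the peaks within 100 kb of the curated starts of *Dsp*, *Dsg2*, *Gja1* and *Tjp1*, by distance of the centre from the start in kb (horizontal axis, positive values downstream), with each bar as wide as its peak or 2 kb where the peak is narrower. Coloured bars are nearest to the named gene and grey bars to another. The coloured bars of *Dsp* all point down, and those of *Tjp1* point down in the block farthest upstream and mostly up nearer the start.

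*Des* encodes desmin, the intermediate filament of muscle that is anchored at desmosomes. On chromosome 1 its start peak (75356856 to 75362860) had 626 reads in controls and 560 in mutants (−0.16). The upstream peak, 13.4 kb before the start (75343404 to 75350457), pointed the other way, with 263 reads in controls and 338 in mutants (0.36). Of the highest concentration group, 95.0% was at or below this value, so *Des* held the highest difference among the members with over 100 reads in both groups.

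Motif cores were counted on both strands of every peak to see what the lower members share. In the central 500 bp, the ESRR core CAAGGTCA was found in 3 of the 58 peaks (5.17%, against 4.66% of all peaks), the TEAD core CATTCC in 18 (31.0% against 26.4%), the ZEB core CAGGTG in 23 (39.7% against 28.0%) and the MEF2 core in 3 (5.17% against 2.58%). In the 10 members that were at least 1.5-fold lower, the same windows held the ESRR core in 0, the TEAD core in 3, the ZEB core in 4 and the MEF2 core in 0. Over all peaks that were at least 1.5-fold lower, these shares were 7.49%, 29.2%, 30.9% and 5.38%. Only 1 pair of matches of different motifs overlapped. Over whole peaks, which corrects for their width, the members had 0.648 TEAD cores per kb against 0.612 over all peaks, and 0.813 ZEB cores per kb against 0.776. ESRR cores came to 0.101 per kb against 0.0883, and MEF2 cores to 0.0483 against 0.0334. The 10 lower members held 5 ESRR cores in 4 peaks (0.124 per kb, against 0.0961 in the other members) and 1 MEF2 core (0.0248 against 0.0529). The 4 *Dsp* peaks had 0.188 TEAD cores per kb, all 4 of them in the start peak, and 0.844 ZEB cores per kb. A match describes the letters in the window and says nothing of a factor bound there.

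A few matches in other members are shown for comparison with those of *Dsp*, chosen after the values were seen, with 20 bases on each side and the core in capitals. Of the 4 ESRR cores in *Tjp1* peaks, the pair shown lies in the upstream block of lower peaks, on the plus strand at chr7:65461990-65462037 and on the minus strand at chr7:65468308-65468355, and 27.4% and 21.3% of peaks of like width held such a core. The others lie in an intronic peak with a difference of −0.39 and in a peak upstream of the start with 0.14. The ESRR core at *Gja1* lies in its intron on the minus strand, chr10:56380659-56380706, in the peak of 17159 bp, and 70.1% of peaks of like width held one. MEF2 cores, of the factors that drive muscle genes, numbered 12 in the member peaks, and a pair on the plus strand is shown. One lies in an intron of *Xirp1* at chr9:120021393-120021442, where 23.3% of like-width peaks held one. The other lies in the upstream *Des* peak at chr1:75347399-75347448, where 19.0% did. Those not shown lie in peaks of *Cdh2*, *Ctnna3*, *Tjp1*, *Xirp1* and *Dsg2*. Only 1 of the 12 lies in a peak at least 1.5-fold lower, the *Dsg2* start peak. The *Des* example comes from the peak that was higher in mutants and the *Tjp1* examples from peaks that were lower. All the ESRR cores shown come from peaks with a difference below 0, but others do not. The same *Des* peak held 3 ESRR cores (0.425 per kb), against 0.201 per kb in the *Dsp* start peak. Peaks of *Ctnna3* (0.20) and *Pkp2* (0.05) held 2 each. Of the ESRR cores in member peaks, 5 lie in peaks at least 1.5-fold lower and 20 in the other peaks.
*Tjp1* upstream ESRR core 1: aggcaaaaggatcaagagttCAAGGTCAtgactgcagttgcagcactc
*Tjp1* upstream ESRR core 2: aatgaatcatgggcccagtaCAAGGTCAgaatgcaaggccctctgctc
*Gja1* intron ESRR core: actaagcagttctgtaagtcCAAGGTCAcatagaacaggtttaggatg
*Xirp1* intron MEF2 core: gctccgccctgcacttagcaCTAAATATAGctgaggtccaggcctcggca
*Des* upstream MEF2 core: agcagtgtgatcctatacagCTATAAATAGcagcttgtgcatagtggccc

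A list of 20 other genes of the disc had 124 peaks with a median of −0.12, and 79 lay below 0 and 43 above. At least 2-fold lower were 16 of these peaks (12.9%) and at least 2-fold higher were 7 (5.65%), against 10.6% and 4.57% of all peaks. The lowest value with over 20 reads in 1 group belonged to *Tmem65*, which encodes a membrane protein of the disc (109 reads in controls and 8.06 in mutants, −3.76). Above the same limit of 20 reads, the genes with the highest values were *Afdn* (17.6 and 42.2 reads, 1.26), *Vcl* (10.5 and 21.9, 1.06) and *Ank3* (46.5 and 83.3, 0.84). *Dsc2*, which encodes the partner cadherin of desmoglein 2, had a pair of peaks at −0.42 and −1.18. None of the 10 members had a peak as low as the lowest of *Tmem65*.

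**Figure D5:**
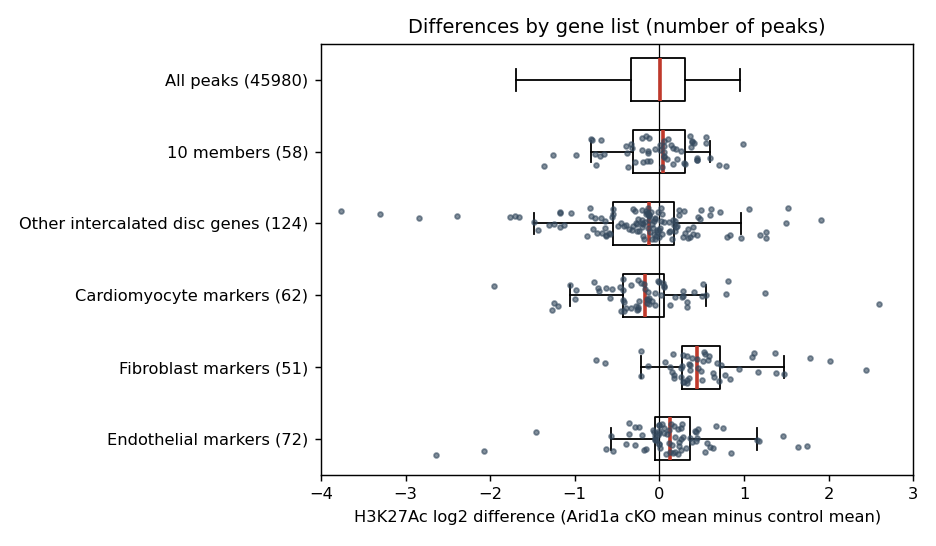
Log2 differences (horizontal axis, *Arid1a cKO* mean minus control mean) of the peaks of each gene list, with the number of peaks in brackets. Boxes span the central 50% with the median in red, whiskers run from the 5 to the 95 percentile, and points are single peaks. The fibroblast markers lie mostly to the right of 0, and the members' box covers nearly the same range as that of all peaks.

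Markers of the cell types in the ventricle were read in the same way. Of 12 cardiomyocyte markers, 11 had a peak (*Actc1* had none nearest to it), and their 62 peaks had a median of −0.18, with summed means of 24529 reads in controls and 22017 in mutants. All 8 fibroblast markers had peaks, 46 of 51 lay above 0, the median was 0.44 and the summed means were 3760 and 5107. All 8 endothelial markers had peaks (72, median 0.12), with sums of 14540 and 14845. All 6 smooth muscle markers did too (18 peaks, median 0.17), with sums of 1681 and 2142. Leukocyte markers had peaks at 5 of 8 genes (13 peaks, median 0.14), with sums of 414 and 445 and none at *Adgre1*, *Lyz2* or *Fcgr1*. Epicardial and epithelial markers had peaks at 5 of 7 genes (14 peaks, median −0.10), with sums of 1209 and 1120 and none at *Upk3b* or *Epcam*. The summed reads of the 10 disc genes, 17245 in controls and 15027 in mutants, were lower in mutants. So were the sums of the other disc genes, the cardiomyocyte list, the epicardial and epithelial list, and all peaks. The log2 difference of the sums was −0.20 for the 10 disc genes and −0.23 for the 20 other disc genes. It was −0.16 for the cardiomyocyte list, −0.11 for the epicardial and epithelial list and −0.08 for all peaks. Without *Dsp* and *Dsg2*, the disc genes (53 peaks, median 0.05) came to 15102 and 13809. Much of that gap lay at *Gja1*, with sums of 3137 and 2447. The sums of *Cdh2*, *Pkp2*, *Jup* and *Xirp1* were also lower in mutants, and those of *Ctnna3*, *Tjp1* and *Des* were higher. The part of a different mix of cells in the differences of the disc genes was not tested.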

How the data were processed

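H3K27Ac and input libraries of P7 ventricles were grouped by the genotype and antibody in the labels. Per the submitters' processing notes and the methods of the study, the authors used BWA (0.7.17-r1188) to align reads to mm10, HOMER (4.11 in the notes) to find peaks over the merged inputs, and DiffBind (2.12.0) with DESeq2 (1.24.0) for the groups. The deposited concentrations are the log2 of mean normalized reads, over all samples and per group, made by the authors. The scaling and the handling of inputs were not given in the sources used here. Columns for single samples number 0 in it, so libraries could not be compared, left out or tested. Its other columns hold the authors' fold change, p-value and false discovery rate for each peak and were not used.

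The difference of the group concentrations was taken as deposited. Peaks were joined by their centre to the nearest start among 45756 curated transcripts of the RefSeq annotation of GRCm38.p6, the assembly of mm10, leaving aside 7 peaks of unplaced sequences. A promoter peak was centred at most 1000 bp before or 100 bp after a start, which only 3 members met, and start-covering peaks were therefore added after the data were seen. The floor was 3 normalized reads, and every member peak was above it in both groups. All 10 members are named with their start peaks and their lowest and highest peaks where these carry the comparison. Of the other disc genes, the 3 most negative and 3 most positive with over 20 reads in the higher group are named, except 2 that are not reported here, and further ones were picked after their values were seen. The members, lists and motifs were chosen with earlier results of these data known. Promoter sequences were those of RefSeq and matched 6 of the 10 members (8 windows). The motif step was tested on simulated sequences. Alternatives covered the fold limit, the assignment of peaks to genes, centring, low concentrations, the promoter window, and each gene left out in turn. Python 3.11.15 was used with numpy 2.4.6, pandas 2.3.3 and matplotlib 3.10.9.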

Additional observations from a re-analysis of the deposited data

How the results depend on the processing

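The count of member peaks that were at least 2-fold lower (2 as reported) was 10 with a limit of 1.5-fold and 0 with 4-fold. It was 1 when predicted transcripts were added to the starts or when peaks over 100 kb from the start were left out, and 1 without *Cdh2* or without *Dsp*. The count of at least 2-fold higher peaks (0 as reported) was 4 with a limit of 1.5-fold, 2 with protein-coding starts only, 2 with peaks taken from the gene body and 10 kb upstream, and 1 when differences were centred on the median of the highest concentration group. Centring on the median of all peaks gave 3 lower peaks. The 3 peaks with their centre in a promoter are a smaller set than the 11 start-covering peaks, and their median, not given above, was also −0.16. That median over promoter peaks was −0.01 with protein-coding starts, 0.045 with gene bodies, 0.045 without *Xirp1* and 0.02 without *Des*. Of the recomputed counts and medians over the members, 89 moved by at most 1.5 times or 0.1 on the log2 scale and 14 moved further. The medians of single genes stayed within 0.1 in 67 of 80 recomputations. Among the other 13, the median of *Jup* (−0.13) was 0.12 with predicted transcripts, 0.74 with protein-coding starts and 0.37 with gene bodies. That of *Gja1* (0.03) was −0.37 with predicted transcripts or gene bodies and 0.21 without low concentrations. *Pkp2* (−0.14) came to −0.01 with protein-coding starts and 0.02 with gene bodies, *Ctnna3* (0.09) to −0.02 and *Des* (0.10) to −0.16 with gene bodies, and the rest kept their sign. No paired analysis was possible because the table holds only group means. With 2 libraries a group, unknown depth and no values per library, neither the error of a difference nor the part of a single library in it can be given, and differences of peaks with few reads are the least certain.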

Other observations

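Some peaks near the disc genes belonged to other genes by the rule and were picked after their values were seen. A pair of peaks around *Jup* had far lower means in mutants than the *Jup* peak itself. The peak at −31.7 kb from the *Jup* start (negative values upstream), nearest to *Nt5c3b*, had 219.8 reads in controls and 30.9 in mutants (−2.83), and that 85.1 kb downstream, nearest to *Eif1*, had 107 and 15.1 (−2.82). Peaks over the starts of *Nt5c3b* and *Eif1* had differences of 0.14 and −0.31. Just upstream of *Cdh2*, the peak over the start of *Gm15328* had 53.8 reads in controls and 134 in mutants (1.32).

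Inside the long body of *Ctnna3* lay 4 peaks nearest to *Lrrtm3*, a gene within its introns, with 50.6 reads in controls and 27.5 in mutants (−0.88), 12.6 and 23.8 (0.92), 21.9 and 15.2 (−0.52), and 26.4 and 2.38. Downstream of *Des*, the 6 peaks nearest to *Speg*, a kinase gene of striated muscle, were all below 0, from −0.71 to −0.11. The strongest of them had 904 reads in controls and 709 in mutants (−0.35). Within *Pkp2*, a peak of 13458 bp that was assigned to *Gm5481* had 771 and 765 reads (−0.01), next to the 3 *Pkp2* peaks described above.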
